A study of Mus musculus with 6 samples.

Results

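In neural stem/progenitor cells cultured from the mouse forebrain and kept with water, 1645 of 13221 H3K4me3 peaks (12.4%, 95% interval 11.9 to 13.0) lay inside the body of a protein-coding gene and away from the ends of all such genes. A peak was counted when it overlapped the span of a protein-coding RefSeq gene of GRCm38 but none of the windows of 2 kb either side of a start or end of any protein-coding gene. The choice used position only and none of the values of the peaks. The members just inside the limit were those in Itm2b, 2003 bp from the nearest gene end, Lsm14b, 2008 bp, and Grik5, 2010 bp. The peaks just outside it were those in Swap70, 2000 bp, Zfp93, 1996 bp, and Ptpn21, 1996 bp.

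The cells came from forebrains at E13.5 and were grown with EGF and FGF, per the labels, then given water or 10 mM crotonate for 24 h. Crotonate is a short-chain fatty acid salt from which cells can make crotonyl-CoA, used to crotonylate histones. The assay was CUT&Tag, where a transposase brought to a histone mark by an antibody cuts and tags the DNA next to it. The labels give the same medium and passages for both treatments and name no strain or genotype. There was 1 library per mark and treatment, so no difference below has a replicate check and no test was made between treatments. The 2 samples with normal rabbit IgG were not analysed here.

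H3K4me3 is laid down around active and poised transcription start sites, where it is recognised by general transcription factors and chromatin remodellers. Many mammalian genes have more than 1 promoter, and a start inside the annotated gene gives a transcript that lacks the first exons. Pax6, whose product drives cortical progenitor identity, and Rassf1, a Ras-association tumour suppressor gene, are known for such promoters. H3K4me3 also occurs at CpG islands and at strong enhancers inside genes, and H3K27me3, the mark set by Polycomb repressive complexes, covers developmental genes that are held silent.

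As a check of the cells, 10 of 10 neural progenitor marker genes (Sox2, Nes, Pax6 and others) carried H3K4me3, against 0 of 11 microglial, 2 of 10 endothelial (Erg and Kdr) and 2 of 11 fibroblast genes (Fn1 and Prrx1). Among 5 neuronal genes 3 did (Map2, Rbfox3 and Tubb3). The lists state no fragment totals. Estimated from the steps of their values, the depth after crotonate was 1.16 times that in water for H3K4me3, 0.811 times for H3K27me3 and 1.80 times for the background of the peak caller. Whether depth or background has a part in any difference between the treatments was not tested.

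The peaks inside genes were shorter and weaker than those at gene ends. Their median length was 1141 bp (quartiles 603 and 1840, range 258 to 5931), against 1591 bp for 10787 peaks at gene ends and 730 bp for 789 peaks between genes. The median fold enrichment, the authors' ratio of the summit to the local background, was 9.61 inside genes, 15.3 at gene ends and 7.59 between genes. The median −log10 q, the authors' measure of how far a peak stands above that background, was 18.7, 41.3 and 11.8. Of the 1645 peaks, 483 (29.4%) reached the middle value of −log10 q in the whole water list, compared with 55.8% of the peaks at gene ends. The range inside genes was wide, from a −log10 q of 1.39 to 132.2.

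**Figure D1:**
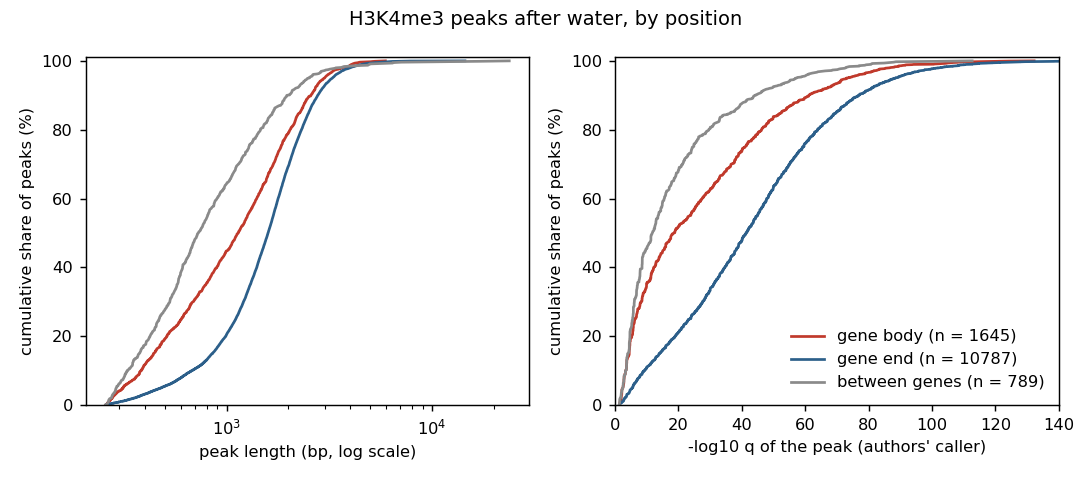
Cumulative share of water H3K4me3 peaks (y axis, %) by length in bp (left, log scale) and by −log10 q (right), for the 1645 peaks inside genes, the 10787 at gene ends and the 789 between genes. The curve of the peaks inside genes lies between the other curves over most of both panels, with medians of 1141 bp and 18.7.

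Transcript starts listed by RefSeq for GRCm38.p6 divided the peaks inside genes by length and strength. A listed start of the gene around the peak, its host, lay under 719 of them (43.7%, 41.3 to 46.2), and 926 covered none. Among the 483 strongest peaks, those that reached the list's median −log10 q, the share was 71.2%. The 719 had a median length of 1600 bp, a fold enrichment of 14.4 and a −log10 q of 36.5, close to the values at gene ends. The 926 had 752.5 bp, 6.998 and 9.40. The start table does not cover every gene: 1154 of the 1411 genes that hold these peaks have a listed start. Among 1363 peaks that lie in a single gene with a listed start, 712 were on a start and 651 were not. The 926 also hold peaks that could not be assessed because their host has no listed start. Those in Rnf14, Kcnn2 and Zfp608 on chromosome 18 are examples. Except for positions along the gene, later shares of peaks on no start include such peaks.

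By the listed starts the 719 are of 2 kinds, and only part of them have a listed start of the same gene further upstream. Whether the others are internal promoters too cannot be told from a table of starts that is not complete. At 369 peaks (22.4% of all 1645) the start under the peak was the most upstream one listed, and the gene span itself extended further, by a median of 6.69 kb (quartiles 3.82 and 17.0). At 350 peaks (21.3%) the start was a later one, downstream of the first listed start of the same gene. The first kind had a median length of 1686 bp and a −log10 q of 39.0, and the second 1497.5 bp and 32.6. A further 44 peaks lay on the start of a long non-coding RNA and on no host start. The other 882 (53.6%) were on neither, peaks in genes without a listed start included.

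The strongest peaks inside genes show what the letters around such a start look like. Of the 6 with the highest −log10 q, those in Mettl21a, Ap2b1, Pcmt1 and Ccdc174 have a listed start under the peak, and Ywhaz and Wdfy1 are not in the table of starts. Mettl21a encodes a lysine methyltransferase of heat shock proteins, Ap2b1 a subunit of the clathrin adaptor AP-2, and Pcmt1 an enzyme that repairs damaged aspartyl residues. Each sequence runs from 250 bases before the start to 50 after it, 5′ to 3′ on the strand of the gene, from the RefSeq table of GRCm38.p6. Capitals mark matches on either strand to the GC box (GGGCGG), the CCAAT box, the TATA box (TATAAA) and the NRF1 motif (GCGC and TGCGC with any 1 base between), and matches of different motifs may overlap. They lie at chr1:64617715-64618014 (minus strand) for Mettl21a, chr11:83302447-83302746 (plus) for Ap2b1, chr10:7663559-7663858 (minus) for Pcmt1 and chr6:91877803-91878102 (plus) for Ccdc174.
Mettl21a: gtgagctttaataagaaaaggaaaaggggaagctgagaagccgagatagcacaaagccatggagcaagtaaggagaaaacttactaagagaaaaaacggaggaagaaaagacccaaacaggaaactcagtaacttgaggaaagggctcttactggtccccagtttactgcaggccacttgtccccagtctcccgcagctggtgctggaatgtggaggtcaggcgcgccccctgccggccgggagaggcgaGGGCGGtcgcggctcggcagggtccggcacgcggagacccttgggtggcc
Ap2b1: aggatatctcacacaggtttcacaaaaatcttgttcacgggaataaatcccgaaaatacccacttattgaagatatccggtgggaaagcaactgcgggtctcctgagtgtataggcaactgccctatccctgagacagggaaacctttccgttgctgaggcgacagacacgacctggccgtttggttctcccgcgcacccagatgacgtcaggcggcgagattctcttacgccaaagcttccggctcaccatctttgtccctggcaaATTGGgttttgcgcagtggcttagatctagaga
Pcmt1: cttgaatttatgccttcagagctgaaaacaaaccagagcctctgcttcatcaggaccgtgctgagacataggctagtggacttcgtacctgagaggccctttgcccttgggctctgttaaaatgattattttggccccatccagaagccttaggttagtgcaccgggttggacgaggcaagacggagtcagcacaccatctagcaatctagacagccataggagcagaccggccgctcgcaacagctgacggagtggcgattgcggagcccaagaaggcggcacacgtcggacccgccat
Ccdc174: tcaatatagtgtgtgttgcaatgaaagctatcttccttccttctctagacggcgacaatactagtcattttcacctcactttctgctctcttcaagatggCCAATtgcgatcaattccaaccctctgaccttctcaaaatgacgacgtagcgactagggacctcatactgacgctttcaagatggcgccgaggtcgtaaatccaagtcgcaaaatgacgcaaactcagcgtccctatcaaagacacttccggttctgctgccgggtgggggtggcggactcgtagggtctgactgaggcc
These 300 bases hold 15 CpG dinucleotides at Mettl21a, 16 at Ap2b1, 15 at Pcmt1 and 17 at Ccdc174, and their ratios of observed to expected CpG are 0.634, 0.811, 0.661 and 0.915. Mettl21a holds 1 GC box, Ap2b1 and Ccdc174 each hold 1 CCAAT box, and Pcmt1 holds none of the 4 motifs.

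A CpG-rich sequence was shared by the starts under peaks inside genes, which the choice by position did not use. The median ratio of observed to expected CpG was 0.751 over 864 listed starts under these peaks, and 0.253 over 2108 starts inside genes without a water H3K4me3 peak. Starts near gene ends had 0.814 under a peak and 0.226 without one. A ratio of at least 0.6, a usual limit for a CpG island, was reached by 72.3% of the starts under peaks inside genes, 9.54% of the internal starts without a peak, 84.0% of the starts near gene ends under a peak, and 47.7% of all 21263 listed starts. The first listed starts among the 864 had a median of 0.792 (n = 369) and the later ones 0.717 (n = 495). Of the 3210 listed starts inside genes and away from gene ends, 1102 (34.3%) lay under a water H3K4me3 peak of any position. These are properties of the reference sequence and the authors' peak calls, not of transcription, which was not measured.

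**Figure D2:**
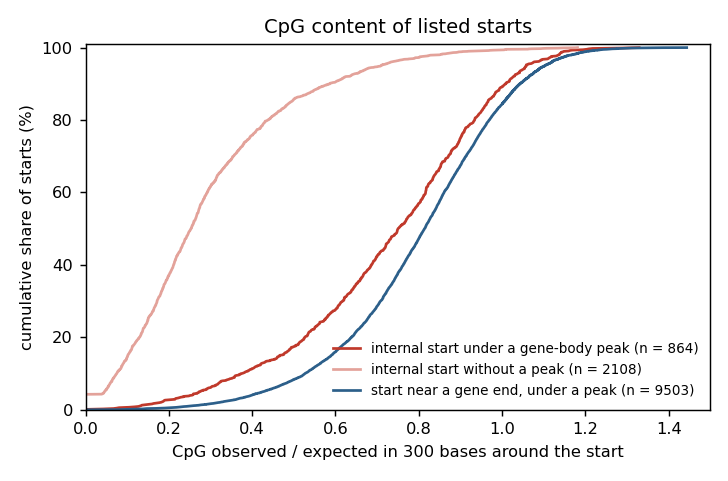
Cumulative share of listed transcript starts (y axis, %) by the ratio of observed to expected CpG in the 300 bases around the start (x axis), for 864 starts under peaks inside genes, 2108 internal starts without a peak and 9503 starts near a gene end under a peak. Medians are 0.751, 0.253 and 0.814, and the curve of the internal starts under a peak runs nearer to that of the marked gene ends.

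Motif content was compared in the same way. A GC box, the binding sequence of SP1-type factors, occurred in 66.1% of the starts under peaks inside genes, 20.9% of the internal starts without a peak, 71.0% of the marked starts near gene ends and 46.2% of all listed starts. The NRF1 motif, bound by a regulator of respiratory genes, occurred in 8.57%, 0.664%, 12.1% and 6.38% in the same order. TATAAA ran the other way, with 5.21%, 14.1%, 5.51% and 12.6%. The CCAAT box hardly varied, with 33.7%, 35.4%, 39.0% and 38.2%. A match is a description of the letters in the window.

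The H3K4me3 over these starts was offset in the direction of transcription. The summit lay downstream of the nearest start at 569 of 719 peaks (79.1%), with a median of 158 bp downstream (quartiles 38 and 288.5), and within 500 bp at 607 (84.4%). The peaks reached a median of 476 bp upstream of the start and 1081 bp downstream, and the downstream part was the longer one at 612 (85.1%). The choice by position limits the upstream part of peaks on starts close to the 2 kb window. The first listed starts under peaks lay from 2.075 kb into the span (lower quartile 3.82 kb). How much this adds to the difference was not tested. Along the gene, the summits of the 1363 peaks with a known direction lay at a median of 32.0% of the span from its 5′ end. The 5′ 50% of the span held 952 of them (69.9%), its first 10% held 252 (18.5%) and its last 10% held 31 (2.27%). Peaks on no start had a median of 34.7%, with 65.1% in the 5′ 50% and 3.69% in the last 10%, and those on a start had 30.1%, 74.2% and 0.983%.

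**Figure D3:**
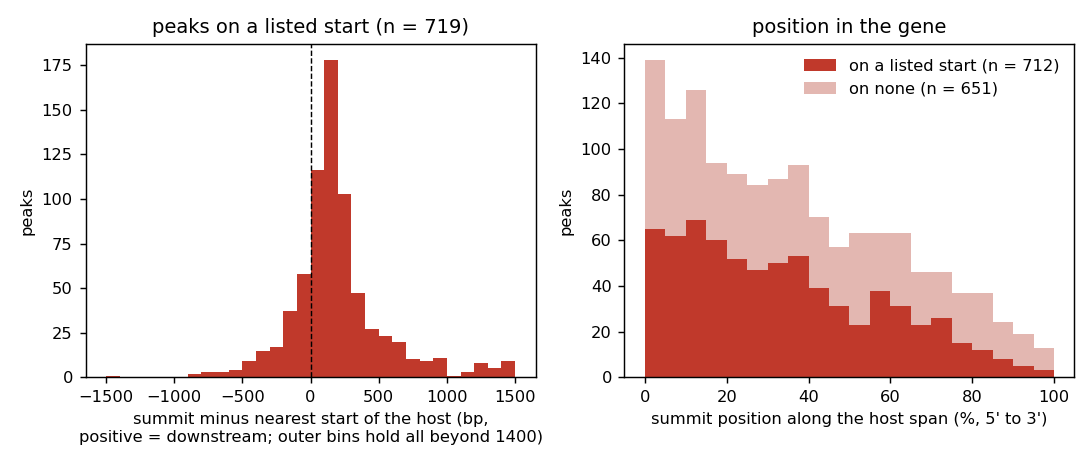
Left: number of peaks inside genes by the distance in bp from the nearest listed start of the gene to the summit (positive is downstream), for 719 peaks on a start; the median is 158 bp. Right: number of peaks by summit position along the gene span in % from the 5′ end, stacked for 712 peaks on a start and 651 on none; 952 of 1363 lie in the 5′ 50% of the span.

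Peaks inside genes fell in 1411 genes, 7.98% of the 17674 protein-coding genes that are long enough (over 4 kb) to hold one. Of these genes, 1209 had 1 such peak, 158 had 2, 32 had 3 and 12 had at least 4. The share was higher among longer genes, which have more room away from their ends: 2.79% of the genes up to 20 kb, 11.6% of those from 50 to 100 kb and 34.4% of those over 500 kb. The genes with such peaks had a median span of 64.4 kb, against 24.3 kb for all 17674. Nfia, a transcription factor gene of the switch to gliogenesis, had the most, with 7 over its 540.8 kb. Aff1, Bcor, Celf2 and Nhsl1 had 5 each, and Ank2, Chd9, Gnas, Magi2 and Pde4b had 4 each. Peaks of 1 gene share its chromatin and are not independent of each other. Near neighbours were common: 278 of the 1645 (16.9%, 15.1 to 18.8) lay within 1 kb of another H3K4me3 peak, against 9.82% of all water peaks, and this applied to 5.29% of the peaks on a start and 25.9% of those on none.

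The gene lists below were chosen with earlier results of these data known. They hold genes of over 4 kb, with the median span of the list's genes in parentheses. Each count is to be read beside the 7.98% of all such genes and the shares by gene length above. Of genes known for internal promoters, 35 of 50 (282 kb) had a peak inside. Synaptic adhesion and scaffold genes, many of them very long, had 25 of 44 (621 kb), among them Dlgap4, Lsamp, Tenm3, Magi2, Nlgn1 and Ntm. Forebrain progenitor transcription factors had 17 of 42 (23.0 kb, and 115 kb for the 17): Pax6, Lhx2, Otx1, Tcf4, Tcf12, Nr2f1, Nr2f2, Nfia, Nfix, Meis1, Meis2, Pbx3, Sall1, Sall3, Zbtb20, Hmga2 and Zeb2. Chromatin regulators had 22 of 64 (62.4 kb), including the DNA methyltransferases Dnmt1 and Dnmt3a, the demethylases Kdm2b, Kdm4c and Kdm6b, Tet1 and Tet3, and Chd4, Chd7 and Chd8. Cytoskeletal and giant scaffold genes had 16 of 33 (154 kb), neuronal differentiation genes 10 of 27 (187 kb) and ion channels 14 of 40 (311 kb).

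Among signalling pathways, Wnt had 7 of 27 (47.4 kb), which were Wnt3, Wnt5a, Wnt7b, Axin1, Axin2, Apc and Tcf7l2. Notch had 4 of 18 (46.0 kb), namely Notch1, Rbpj, Maml2 and Mib1, and FGF and EGF signalling 7 of 32 (77.8 kb). Hedgehog had 2 of 12 (80.0 kb), Ptch1 and Cdon, and BMP and TGF-beta 2 of 25 (69.0 kb), Tgfb2 and Bmpr2, a share at that of all genes. Axon guidance had 9 of 34 (236 kb), glutamate and GABA receptors 6 of 26 (387 kb), the cell cycle 4 of 25 (11.5 kb), radial glia and stem cell markers 3 of 18 (82.0 kb; Msi1, Hopx and Slc1a3), and astrocyte and oligodendrocyte genes 4 of 21 (18.95 kb). Ventral forebrain and interneuron genes had 0 of 14 (9.95 kb), and microglial, endothelial and fibroblast genes 0 of 9 (25.6 kb), 0 of 9 (61.1 kb) and 0 of 10 (38.4 kb). A count of 0 in lists this short says little. No test was made on the lists.

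The peak at Pax6 was among the longer ones. It spanned chr2:105674962-105678204, 6066 bp into the gene, measured 3243 bp with a fold enrichment of 25.1 and a −log10 q of 62.2, and was 4480 bp long after crotonate. It lies between the listed starts of the gene at 105668896 and 105682463 and covers neither, and neither of these was under a water peak. In water the nearest other H3K4me3 peak was 225653 bp away. After crotonate a second, short one was called inside the gene, from 12361 to 12736 bp from its 5′ end, shortly before the later listed start at 13567 bp. H3K27me3 was called over neither peak in either list. Other transcription factors of forebrain progenitors carried some of the longest peaks inside genes. Zeb2, a zinc-finger homeobox repressor, had one of 5600 bp in water and 6642 bp with crotonate over 3 later starts, 4163, 4189 and 7165 bp from a first start that was marked too. Lhx2, a LIM-homeobox selector of cortex, had one of 5118 and 7607 bp, also on a later start, though the longer crotonate peak joined it with another water peak. Sox6 had 5273 and 5576 bp. The longest of all was in Cic, a repressor of growth factor response genes, with 5931 and 6346 bp, and Ubtf, a factor of ribosomal RNA transcription, had 5030 and 5639 bp.

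At Nfia the 7 peaks formed 2 groups. A peak of 3668 bp lay on its listed start, 3.88 kb inside the span, and measured 5059 bp after crotonate. The other 6 lay from 173173 to 202494 bp into the gene, measured from 1009 to 4039 bp and covered no listed start. After crotonate 3 of these were part of a single peak of 8264 bp.

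**Figure D4:**
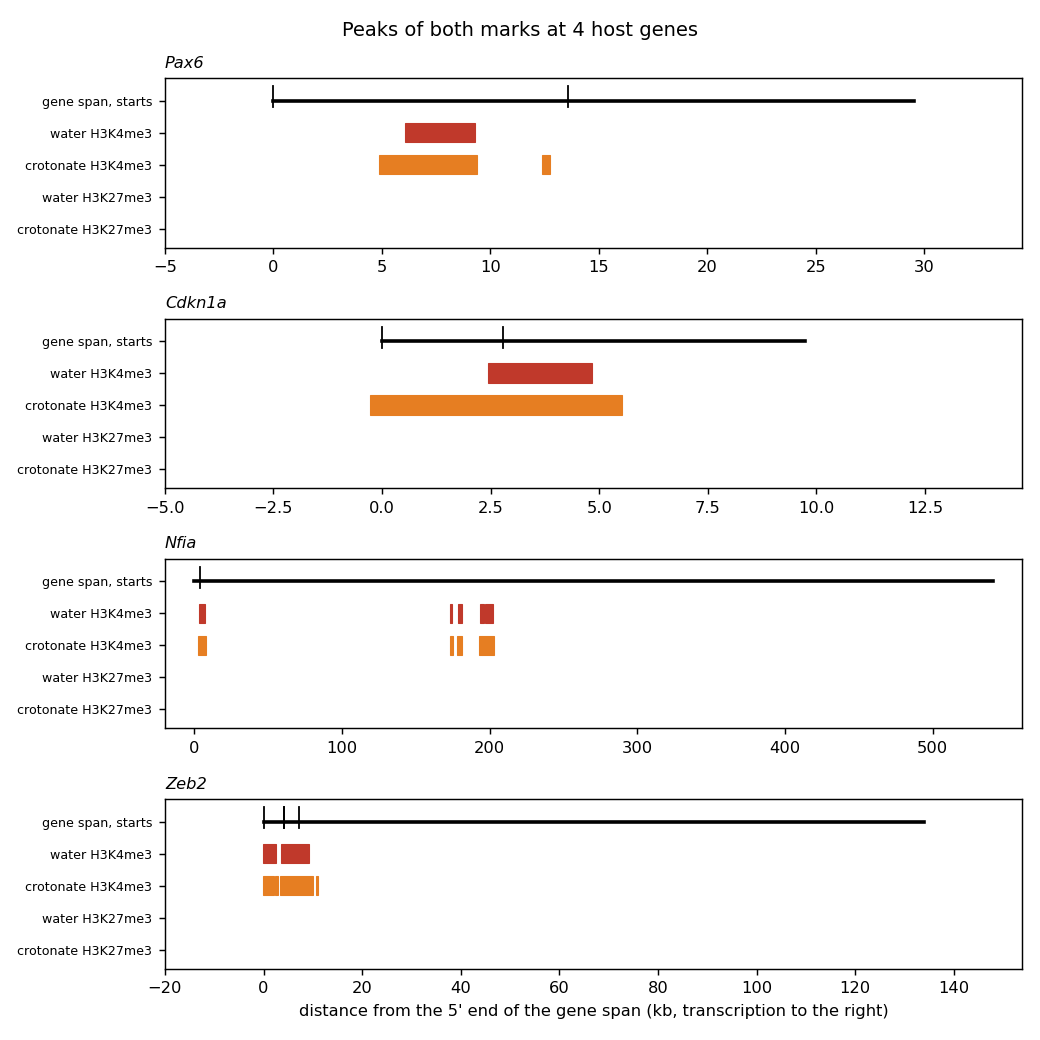
Peaks of both marks after water and crotonate along Pax6, Cdkn1a, Nfia and Zeb2, with distance from the 5′ end of the gene span in kb on the x axis and transcription to the right; black lines are gene spans, ticks on them listed starts. The water peak of Pax6 lies between the listed starts, the Cdkn1a peak covers the later start in water and both after crotonate, Nfia holds a group of peaks near 173 to 202 kb, and H3K27me3 was called at none of the 4 genes.

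Genes with a marked later start were then compared at their first start. Peaks inside genes lay on a later start of 337 genes. The first listed start was itself under a water H3K4me3 peak in 161 of them (47.8%, 42.3 to 53.3), against 58.9% of all 2761 protein-coding genes with several listed starts. In 176 it was not, with starts a median of 19.9 kb apart (quartiles 7.23 and 62.3) over all 337. The 176 include genes such as Ubtf and Sox6, where a peak came within 2 kb of the first start; 198 of the 337 had one that near. In the 176 genes, the median CpG ratio was 0.327 at the first start and 0.686 at the later one, and the later start had the higher ratio in 144 (81.8%). In the 161 genes with both starts marked, the ratios were 0.772 and 0.682, and the later start was the higher in 60 (37.3%). Of the 176 unmarked first starts, 35 (19.9%, 14.3 to 26.6) were under an H3K4me3 peak after crotonate. H3K27me3 after water lay over 16 of the 176 (9.09%, 5.29 to 14.3) and over 10 of the 161 marked first starts (6.21%, 3.02 to 11.1), and these intervals overlap. The shares over all unmarked listed starts are not given here, so neither count is read as particular to these genes.

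Cdkn1a, Dnmt1 and Rassf1 show this pair of starts within 1 gene. They were chosen after their values were seen, and the later start is printed before the first. Cdkn1a encodes the cell cycle inhibitor p21, with starts 2.79 kb apart at chr17:29093519-29093818 (later, plus strand) and chr17:29090729-29091028 (first). Dnmt1 encodes the maintenance DNA methyltransferase, with starts 7.27 kb apart at chr9:20952574-20952873 (later, minus strand) and chr9:20959839-20960138 (first). The starts of Rassf1 are 3.03 kb apart, at chr9:107554333-107554632 (later, plus strand) and chr9:107551305-107551604 (first). Capitals mark the motifs given above.
Cdkn1a later start, under a water peak: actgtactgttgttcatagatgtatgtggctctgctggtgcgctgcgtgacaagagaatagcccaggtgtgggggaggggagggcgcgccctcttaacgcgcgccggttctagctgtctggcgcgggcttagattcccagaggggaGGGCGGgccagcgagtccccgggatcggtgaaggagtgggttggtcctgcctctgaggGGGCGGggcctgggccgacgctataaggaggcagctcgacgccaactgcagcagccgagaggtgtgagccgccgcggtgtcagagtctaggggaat
Cdkn1a first start, under none: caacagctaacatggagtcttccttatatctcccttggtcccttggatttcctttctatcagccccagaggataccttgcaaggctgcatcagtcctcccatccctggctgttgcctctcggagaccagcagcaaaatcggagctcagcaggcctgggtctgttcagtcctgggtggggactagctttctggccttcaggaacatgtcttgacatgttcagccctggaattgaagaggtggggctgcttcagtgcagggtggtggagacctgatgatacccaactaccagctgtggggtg
Dnmt1 later start, under a water peak: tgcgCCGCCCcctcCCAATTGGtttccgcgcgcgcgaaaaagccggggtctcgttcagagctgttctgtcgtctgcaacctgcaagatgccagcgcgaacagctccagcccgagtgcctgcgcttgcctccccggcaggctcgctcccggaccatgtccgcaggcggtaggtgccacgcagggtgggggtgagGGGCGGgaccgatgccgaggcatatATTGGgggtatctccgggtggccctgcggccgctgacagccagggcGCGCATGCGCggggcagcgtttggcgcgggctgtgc
Dnmt1 first start, under none: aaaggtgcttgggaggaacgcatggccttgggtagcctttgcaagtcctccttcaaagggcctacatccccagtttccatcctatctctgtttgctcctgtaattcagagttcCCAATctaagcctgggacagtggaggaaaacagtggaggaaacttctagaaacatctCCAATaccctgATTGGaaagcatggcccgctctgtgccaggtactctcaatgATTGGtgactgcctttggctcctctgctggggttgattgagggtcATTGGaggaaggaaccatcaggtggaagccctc
Rassf1 later start, under a water peak: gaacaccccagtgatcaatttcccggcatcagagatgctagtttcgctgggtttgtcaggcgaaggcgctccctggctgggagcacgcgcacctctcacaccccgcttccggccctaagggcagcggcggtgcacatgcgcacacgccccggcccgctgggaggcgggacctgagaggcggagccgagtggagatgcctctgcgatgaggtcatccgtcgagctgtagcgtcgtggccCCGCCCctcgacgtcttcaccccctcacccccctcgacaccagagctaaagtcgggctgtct
Rassf1 first start, under none: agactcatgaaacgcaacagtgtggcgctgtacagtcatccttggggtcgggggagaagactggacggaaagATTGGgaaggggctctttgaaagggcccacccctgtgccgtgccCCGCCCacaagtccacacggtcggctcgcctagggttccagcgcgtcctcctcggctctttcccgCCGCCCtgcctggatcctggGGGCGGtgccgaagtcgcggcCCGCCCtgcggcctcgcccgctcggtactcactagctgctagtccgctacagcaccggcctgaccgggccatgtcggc
The CpG ratio was 0.786 at the later and 0.0893 at the first start of Cdkn1a, with 23 and 2 CpG in the 300 bases, and 0.910 and 0.101 at Dnmt1, with 33 and 2. The later start of Dnmt1 holds 2 GC boxes, 3 CCAAT boxes and an NRF1 motif that reads the same on both strands and so counts as 2 matches, and the first start holds 5 CCAAT boxes alone. Rassf1 differs from these: the ratio was 0.823 at the later and 0.804 at the first start, with 27 CpG in each, so a CpG-rich first start was without a peak in water. At Hk1, a hexokinase gene with starts 39.5 kb apart, the ratios were 0.665 and 0.0507.

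Of these, Cdkn1a and Rassf1 had a peak that reached into the window of a gene end after crotonate. The water peak of Cdkn1a measured 2407 bp with a −log10 q of 85.3, and the crotonate peak measured 5809 bp and reached over the first start. At Rassf1 the peak was 2204 bp in water and 3163 bp with crotonate. At Dnmt1 the peak was 2138 and 2227 bp, at Hk1 2170 and 2985 bp, and their first starts were under a peak in neither list. Some marked later starts lay far from an unmarked first start. At Schip1 the starts were 507.6 kb apart, and the peak was 2.70 kb long in water and 3.79 kb with crotonate, and at Rbms3, 377.4 kb, with 3.55 and 4.42 kb. At Robo2, which encodes a receptor for the guidance cue Slit, the distance was 1035.5 kb, and the largest of all, at the dystrophin gene Dmd, was 2099.4 kb.

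The ends of the hosts were compared with those of all genes. Of the 1645 peaks, 912 (55.4%, 53.0 to 57.9) lay in a gene with another water H3K4me3 peak within 2 kb of one of its ends. Counted by gene, this was 54.1% of the 1411 hosts, against 61% of all 17674 protein-coding genes of over 4 kb. By peak, the share was 29.3% for peaks on the first listed start, 55.7% for those on a later start and 65.8% for those on no start.

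Non-coding genes lay near some of the peaks. Of the 1645, 280 (17.0%, 15.2 to 18.9) were within 2 kb of an end of a gene that is not protein-coding, against 21.5% of all water peaks. These included 244 peaks near 233 lncRNA genes and 19 near 18 miRNA genes. A lncRNA start lay under 108 of the peaks (6.57%), against 9.01% of all water peaks. In the 96 pairs of a lncRNA and its host with both strands listed, 92 (95.8%, 89.7 to 98.9) ran on opposite strands, and where the host start was under the same peak too, 60 of 63 did. The share was 89.4% over all 1801 such pairs with a lncRNA start inside a gene and away from gene ends, and 89.1% over the 1683 of them without a water peak, so it is near the background. Examples are Pcmt1 with A630066F11Rik, Hk1 with Hk1os, Dlgap4 with 4930405A21Rik and Ppp2r5c with Gm19605. At Inpp5b, a phosphoinositide phosphatase gene, the peak of 1789 bp with a −log10 q of 106.2 covered the start of Gm12915 on the opposite strand and no listed start of Inpp5b.

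After crotonate, nearly all of the peaks inside genes were called again. A crotonate H3K4me3 peak overlapped 1601 of 1645 (97.3%, 96.4 to 98.1), against 99.3% of all water peaks. On a listed start of the host 719 of 719 were found again, and on none 882 of 926 (95.3%). The 44 without a counterpart were short, 359 bp at the median, with −log10 q at a median of 3.30, and 0 reached the middle value of the list. The strongest was in Ankrd17, 549 bp with a −log10 q of 9.96, followed by peaks in the Pcdha gene cluster, Pdpk1, Limk2 and Rcc2. A peak of 357 bp in Notch1, the receptor gene, was among the 44. With a reciprocal overlap of at least 50% the share found was 74.5%.

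Most of the peaks were longer after crotonate. There were 1371 that matched a single crotonate peak and no other, and of these 1277 (93.1%, 91.7 to 94.4) were longer after crotonate, against 94.5% of all pairs. Their median length was 1262 bp in water and 1692 bp with crotonate, with a median ratio of 1.28, against 1.24 at gene ends. The ratio exceeded 1.5 at 410 pairs (29.9%), against 23.4% of all pairs. Among peaks under 1 kb the median ratio was 1.59 inside genes (n = 538) and 1.59 at gene ends (n = 1895), and among longer ones 1.20 in both (n = 833 and n = 8134). The strongest peak, in Mettl21a, measured 1777 bp in water and 2320 bp with crotonate, and those in Ap2b1, Ywhaz, Wdfy1, Pcmt1 and Ccdc174 measured 2195 and 2503, 3313 and 3518, 1398 and 1854, 1779 and 2456, and 1650 and 1794 bp. All of these were longer after crotonate. In Dst, a cytoskeletal linker gene, peaks of 1668 and 345 bp were shorter, with 1582 and 297 bp, and that of 1790 bp was longer, with 2323 bp. In Camta1 a peak of 2389 bp was shorter, with 2157 bp, and that of 1480 bp was longer, with 2583 bp.

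**Figure D5:**
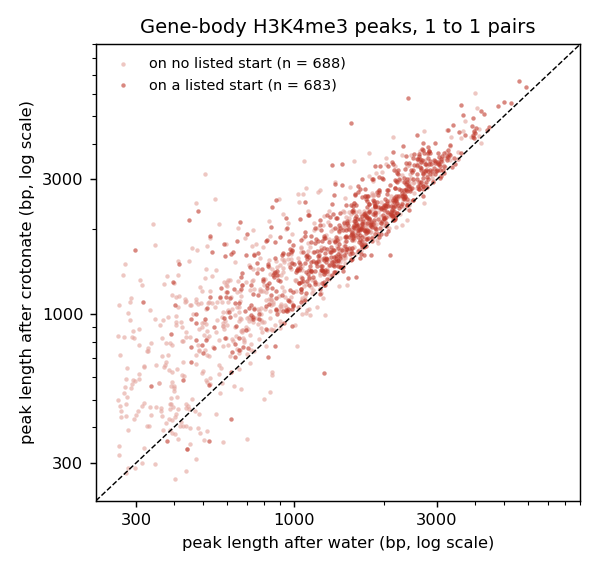
Length in bp after crotonate (y axis) against length after water (x axis), both on log scales, for 1371 peaks inside genes that paired 1 to 1; dark points are 683 peaks on a listed start of the host, pale points 688 on none, and the dashed line marks equal length. Of the points, 1277 lie above the line, and the short pale ones scatter most.

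Some of the peaks were part of a larger peak after crotonate. Of the 1645, 227 (13.8%) lay under a crotonate peak that also covered another water peak, against 7.65% of all water peaks. The crotonate peak reached into the window of a gene end at 155 (9.42%, 8.05 to 10.9), and 109 of the 155 were joined with another water peak. The share was 7.44% of all peaks that lay outside these windows in water, a set that includes the 1645. Among the 789 peaks between genes it was 3.30%. The share of peaks inside genes depends on the window: it was 14.5% with windows of 1 kb and 2.97% with 5 kb, and 5.38% among the 483 strongest peaks. The strongest of the 155 were in Mkrn1, Cdkn1a, Tcf25, Rassf1 and Pop5. Axin2, a feedback inhibitor gene of the Wnt pathway, had a peak of 4052 bp on its first listed start and one of 4547 bp after crotonate, which came within 2 kb of a gene end. In Ptch1, the Hedgehog receptor gene, the crotonate peak of 7737 bp joined the water peak of 4261 bp with another.

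By the same choice of position the crotonate list, which is longer, held 2589 peaks inside genes, of which 1191 (46.0%, 44.1 to 47.9) had no counterpart in water, against 21.1% of all crotonate peaks and 13.3% of those at gene ends. The count of 2589 was 1518 with lists of equal length, fewer than the 1645 in water, so the direction turns with list length. With windows of 5 kb it was 1581, against 1110 in water, so the direction did not turn with that window. The 1191 were short, 441 bp at the median, with −log10 q at a median of 3.90, against 1698 bp and 48.3 for those with a counterpart. A listed coding start lay under 71 of them (5.96%), and 121 (10.2%) lay on H3K27me3 called in water. For comparison, 8.02% of the water H3K4me3 peaks inside genes and 6.88% of all water H3K4me3 peaks lay on it. The same shares over all crotonate peaks are not given here, so neither count is read as particular to the 1191. The strongest was in Egf, the epidermal growth factor gene, 528 bp with a −log10 q of 49.3. Those in the developmental transcription factor genes Lhx4 and Tfap2a, of 2395 and 1285 bp, in Scrt1, of 1800 bp, and in Pdgfb, of 2978 bp, lay on H3K27me3 of the water list. Those in Cfap20, Mrpl48, Mro, Brdt and Btbd17 did not.

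H3K27me3 overlapped few of the peaks inside genes. In water it was called over 132 of 1645 (8.02%, 6.76 to 9.44), against 6.88% of all water H3K4me3 peaks, and after crotonate over 152 (9.24%, 7.88 to 10.7), against 7.56%. With lists of equal length the crotonate share was 7.60%, below that in water. The shares were 1.86% and 2.28% among the 483 strongest peaks. The 132 were weak H3K4me3 peaks, with a median of 854.5 bp and a −log10 q of 9.92, and 9 of them reached the list's median. On a listed start 5.70% were covered, and on none 9.83%. Of the 132, 124 (93.9%, 88.4 to 97.3) were still on H3K27me3 after crotonate, against 89.6% of all H3K4me3 peaks on it in water. Of the other 1513, 28 (1.85%) were on it after crotonate, against 1.49% of all. Some H3K27me3 peaks, as at Cyp26b1, lay under more than 1 of the 132 and were counted once for each. So counted, the H3K27me3 peaks under the 132 had a median length of 3.63 kb (quartiles 1.42 and 8.21) in water. Crotonate H3K27me3 peaks covered a median of 98.7% of that length (quartiles 86.2 and 100). The 1 to 1 pairs among the 132 H3K4me3 peaks had a median length ratio of 1.57 between the H3K4me3 lists (n = 112). Their median length in water was 888 bp, and the ratio was near the 1.59 of all peaks under 1 kb, both inside genes and at gene ends.

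The 6 longest H3K27me3 domains under the peaks were at Casz1, Gata3, Rsrc1, Onecut2, Prss16 and Nr2f2, a ranking chosen with the values in view. They measured 36.0, 31.2, 26.1, 22.3, 21.8 and 20.2 kb in water. Crotonate H3K27me3 covered 98.7% of the domain at Casz1, a zinc-finger transcription factor gene, 95.6% at Rsrc1 and 100% at the other 4. The strongest H3K4me3 peak on H3K27me3 was in Rsrc1, 861 bp in water and 1351 bp after crotonate with a −log10 q of 73.9, at the edge of its domain of 26.1 kb. Ebf3, a helix-loop-helix factor gene of neuronal differentiation, had an H3K4me3 peak of 2845 bp on a domain of 10.6 kb, which was 96.5% covered after crotonate. At Esrrb, an orphan nuclear receptor gene, a peak of 2242 bp lay on 1.38 kb of H3K27me3, and at Pde10a a peak of 3286 bp on 3.34 kb. At Pdgfra, the receptor gene of oligodendrocyte precursors, a peak of 1555 bp overlapped 0.365 kb of H3K27me3 in water and none after crotonate, with an H3K27me3 −log10 q of 1.38.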

How the data were processed

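CUT&Tag peak lists of H3K4me3 and H3K27me3 after water and after crotonate were used, 1 library each. Per the submitters' processing notes, the build was GRCm38 and the tools were MACS2 2.2.7.1, Picard 2.22.0, SAMtools 1.10 and Bowtie2 2.4.1. Settings, duplicate handling and the background library are not given in the sources used. The pileup at the summit is a signal deposited by the authors, significance is −log10 of p and q per the file headers, and fold enrichment is a ratio deposited by the authors. Every peak has q under 0.05. The fold column was taken as the caller's own and used within 1 list only.

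Peaks were compared in Python 3.11.15 (numpy 2.4.6, pandas 2.3.3, scipy 1.17.1, matplotlib 3.10.9). A shared peak overlaps by at least 1 bp; the overlap code was tested on simulated data and against bedtools 2.31.1. The spans of 21887 protein-coding genes (19 autosomes, X and Y), and listed starts with 300 bases for 17492 of them, came from RefSeq tables of GRCm38.p6. That table is not complete, which limits every count of starts. The 95% intervals of shares are exact Clopper-Pearson ones and cover counting error alone. The pileup steps and lowest background gave the depth estimates, which assume scaling of every library to its background.

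The members and the 21 gene lists (579 genes) were chosen with earlier results of these data known. Named were Pax6, Cdkn1a, Axin2 and Lin28a (which had no such peak), 10 per rule by −log10 q, length, number of peaks in a gene, H3K27me3, absence or gene end after crotonate and non-coding neighbours, and up to 6 per list; others are said to be chosen after their values were seen or illustrate a stated count. Alternatives on starts and on neighbouring peaks were added after seeing the data.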

Additional observations from a re-analysis of the deposited data

How the results depend on the processing

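Of 57 alternatives over 13 results, 27 left the value within its interval or within 1.5 times and 30 moved it; the cause was not tested. With only the peaks that reach the list's median −log10 q, the count was 483, with a median length of 1948 bp; 100% were found after crotonate, 96.1% were longer, 1.86% lay on H3K27me3 in water and 2.28% after crotonate, 21.5% lay at a non-coding gene end, 39.5% had a marked host end, 5.38% reached a gene end, 71.2% covered a host start and 30.2% a later start. With 50% reciprocal overlap, 74.5% were found. When an H3K27me3 peak had to cover at least 50% of the H3K4me3 peak, 6.63% lay on H3K27me3 in water and 7.54% after crotonate. With lists of equal length, 90.5% were found, 94.9% were longer, 7.60% lay on H3K27me3 after crotonate, and 1518 crotonate peaks lay inside genes; these last values, against 8.02% and 1645 in water, turn the direction between the treatments. With windows of 1 kb, 51.1% had a marked host end, 14.5% reached a gene end and 18.4% covered a later start. With windows of 5 kb these were 61.8%, 2.97% and 25.7%, and 1581 crotonate peaks lay inside genes, against 1110 in water. With position by summit, 61.6% had a marked host end and 7.79% reached a gene end. With a start counted within 500 bp, 48.7% were on a host start and 24.0% on a later one. The first start had no peak within 2 kb in 41.3% of the genes with a marked later start, against 52.2% with none over it. No paired analysis was possible because each group is 1 library. Depth is known from estimates alone, so a peak missing from a list may be one that fell short of its threshold.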
